A study of Homo sapiens with 15 samples.

Results

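Ribosome biogenesis factors are the proteins that make ribosomal RNA and fold, cut, modify and carry it into new ribosomal subunits. The 47 genes described here were chosen by name, with earlier results of these data known, among 60649 genes in the count table. Each was found by its symbol under a single Ensembl identifier. They fall into 7 proteins of small nucleolar ribonucleoproteins (snoRNPs), 15 small subunit factors, 14 large subunit factors, 6 genes of RNA polymerase I and its helpers, and 5 general nucleolar proteins. RNA polymerase I transcribes the long ribosomal RNA precursor in the nucleolus, snoRNPs guide chemical changes of its nucleotides, and separate sets of factors assemble the small and the large subunit around the cut pieces. The pathway takes up much of the energy of a growing cell, and its activity is commonly high in leukaemia cells.

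The RNA came from K-562 (K562), an established human line of chronic myeloid leukaemia, grown without drug or exposed for 24 h to martinostat, an inhibitor of histone deacetylases (HDACs). The doses rose from 0.15 µM through 0.25 and 0.5 µM to 1 µM, and each of the 5 groups, the untreated cells included, held 3 libraries labelled as biological replicates. Poly(A) RNA was sequenced, so the values concern the mRNAs of these factors and not ribosomal RNA. All cells were of 1 line in culture, and every dose was compared with the same 3 untreated libraries, so that comparisons with untreated cells were not independent of each other.

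Library totals ran from 23755510 to 32805574 counts, and 23711 genes passed the filter on low counts. All 47 factors passed it, and 46 of them averaged at least 10 CPM (counts scaled to a common library size). NOP2 stayed under that level, with as few as 24 counts in a library, and 54.4% of its exon bases lay under another gene. Apart from NOP2 the lowest count of a factor in any library was 113. Levels are given as CPM on library sizes corrected with edgeR's TMM factors, a trimmed mean of log ratios between libraries. These factors were 0.784 to 0.828 in untreated and 0.950 to 1.28 in treated libraries, the highest being 1.28 and 1.22 in replicate 3 at 0.25 and at 0.5 µM. Those 2 libraries stood apart from their groups. Replicate 3 held the lowest value of its group for 22 factors at 0.25 µM and for 37 at 0.5 µM. In the other groups 1 replicate was also lowest for many factors. This was replicate 1 for 36 in untreated cells and 30 at 0.15 µM, and replicate 2 for 26 at 1 µM. In raw counts replicate 3 at 0.15 µM and replicate 2 at 1 µM also stood apart from their groups, though less far. K562 genes were present in untreated cells, with GATA1 at 254 to 269 CPM and the fusion partners BCR and ABL1 at 328 to 381 and 447 to 508 CPM on library totals. At 1 µM GATA1 read 15.6 to 21.1 CPM, while BCR and ABL1 read 252 to 378 and 404 to 547. All 9 K562 genes passed the filter, and their sum was 2745 to 2852 CPM in untreated cells and 1575 to 1708 at 1 µM. Sums of 4 T cell markers were 2.80 to 4.20 CPM in untreated cells, 17.8 to 23.8 at 0.15 µM, 11.9 to 22.3 at 0.25 µM, 2.36 to 4.08 at 0.5 µM and 2.32 to 4.47 at 1 µM, and all 4 were called higher at both lower doses. Sums of 4 B cell markers were 1.80 to 3.86 CPM in untreated cells and 7.42 to 13.5 over the treated libraries. Those of 4 fibroblast markers were 18.1 to 19.9 in untreated cells and 285 to 498 over the treated libraries, and those of 4 epithelial markers 925 to 995 and 2916 to 5723. The last 2 sums were mostly COL1A1 and KRT8 at 1 µM, and CD2, MS4A1, COL3A1 and DCN stayed under 1 CPM in all libraries. Not all markers followed their sum. EPCAM went from 108 to 117 CPM in untreated cells to 18.9 to 22.9 at 1 µM. It was called lower at every dose, while the other 3 epithelial markers were called higher. COL1A2 was called lower at 0.5 and 1 µM. Of the T cell markers 1 was called lower at each of these doses, where CD3D was lowest, with log2 fold changes of -1.16 and -1.03. At 0.5 µM 2 T cell markers were called higher, and at 1 µM 1 was. The part of these markers in the results was not tested.

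The mRNAs of the factors fell at every dose. Calls were made with edgeR's quasi-likelihood test, where the p-value adjusted by the method of Benjamini and Hochberg was under 0.05, and all adjusted p below are of that kind. Against untreated cells 45 of 47 were called lower at 0.15 µM, where 19.4% of all tested genes and 40.2% of those of at least 10 CPM were called lower. All 47 were called lower at 0.25 µM (24.8% and 48.7% of the same gene sets), at 0.5 µM (27.6% and 48.7%) and at 1 µM (27.5% and 48.4%). No factor was called higher at any dose, by edgeR or by DESeq2, and none had an unadjusted p under 0.05 in that direction. Of all tested genes 31.9%, 37.4%, 39.4% and 38.8% were called higher at the 4 doses in rising order. For each of the 47 the 3 libraries of every dose lay below all 3 untreated libraries, as they did for 19.0% of all tested genes and 38.2% of those of at least 10 CPM.

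Median log2 fold changes over the 47 were -1.18, -1.85, -2.50 and -2.43 at the doses in rising order. The medians of all tested genes were 0.28, 0.32, 0.34 and 0.32, and those of genes of at least 10 CPM were -0.28, -0.40, -0.37 and -0.39. At 1 µM all 47 factors were over 2-fold lower, from NOP16 at -4.30 to RRP1B at -1.10, as were 18.3% of all tested genes and 29.2% of those of at least 10 CPM. For 29 of the 47 the fall was over 4-fold, against 6.23% and 8.41%. All 47 differed among the 5 groups in a test over all groups at once, as did 73.6% of all tested genes and 85.3% of those of at least 10 CPM. As a share of the raw counts of a library, the 47 mRNAs made up 1.45%, 1.53% and 1.48% in untreated cells and 0.430%, 0.413% and 0.433% at 1 µM. In a bulk measurement such as this, fewer cells making an mRNA and less of it per cell cannot be told apart.

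**Figure D1:**
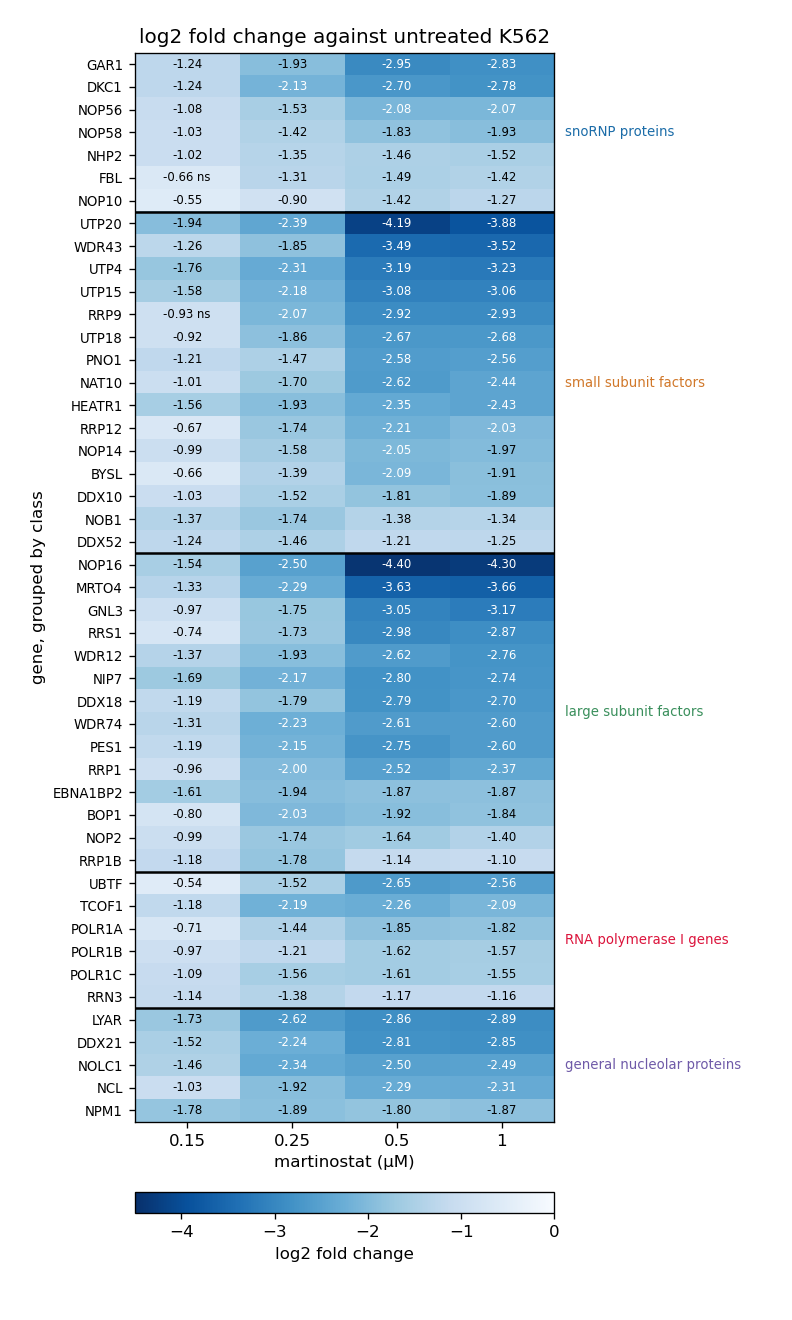
Log2 fold change of each of the 47 factors (vertical axis, grouped by class and ordered by the 1 µM value) at 4 martinostat doses (horizontal axis, µM) against untreated K562 cells, from edgeR, n = 3 libraries a group. Every value is below 0, and ns marks the 2 values that were not called, FBL and RRP9 at 0.15 µM.

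The factors moved together, so the DNA around their transcription start sites is shown for some members. These had an extreme value in their class and a window that held CACGTG or, in NPM1, CTCGCGAG. Matches to the other motifs searched did not count for this choice and are not marked. Promoter sequences of RefSeq on GRCh38.p14, from 250 bases before to 50 after a start site, were found for 38 of the 47. They were searched on both strands for the E-box CACGTG, the site of MYC with MAX and of other basic helix-loop-helix proteins. An E-box was present in 19 of the 38 (50.0%), in 25.0% of 76 other ribosome biogenesis genes, in 13.2% of 8133 genes of at least 10 CPM, and in 8.77% of all 27305 genes with a promoter. None of the other motifs searched contains it. CTTCCGG, the core of ETS sites, was in 36.8% of the factors, 48.7% of the other ribosome biogenesis genes and 24.6% of the genes of at least 10 CPM. GCATGCG, the core of NRF1 sites, was in 10.5%, 6.58% and 8.34% of these sets, and CTCGCGAG in 7.89%, 5.26% and 2.82%. Members with and without an E-box had median log2 fold changes of -2.68 and -2.31 at 1 µM. The medians were -2.64 with and -2.44 without CTTCCGG. For GCATGCG they were -2.28 with and -2.50 without, and for CTCGCGAG -1.87 with and -2.56 without. Differences between members with and without a motif were not tested. Median GC content of the promoters was 63.8% in the factors and 58.3% in all genes with a promoter. A match is a description of letters and not evidence of binding.

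Shown are windows from 100 bases before to 30 bases after a start site, with the E-box in capitals: NOP10 at chr15:34343107-34343236 on the minus strand, WDR43 at chr2:28894567-28894696 on the plus strand, UTP20 at chr12:101280005-101280134 on the plus strand, DDX21 at chr10:68956547-68956676 on the plus strand and LYAR at chr4:4289992-4290121 on the minus strand. NPM1 at chr5:171387749-171387878 on the plus strand had no E-box in its promoters, and there the capitals mark CTCGCGAG. Each runs 5′ to 3′ along the strand of the gene.
NOP10: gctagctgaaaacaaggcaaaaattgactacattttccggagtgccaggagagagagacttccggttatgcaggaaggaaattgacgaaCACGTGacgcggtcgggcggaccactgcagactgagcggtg
WDR43: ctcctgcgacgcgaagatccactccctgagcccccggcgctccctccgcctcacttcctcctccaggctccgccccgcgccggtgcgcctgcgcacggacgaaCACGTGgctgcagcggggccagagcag
UTP20: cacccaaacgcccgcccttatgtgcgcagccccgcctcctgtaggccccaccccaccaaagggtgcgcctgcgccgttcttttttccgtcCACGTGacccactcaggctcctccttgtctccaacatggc
DDX21: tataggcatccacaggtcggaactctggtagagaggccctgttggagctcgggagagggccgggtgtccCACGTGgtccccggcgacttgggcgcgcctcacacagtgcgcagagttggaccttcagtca
LYAR: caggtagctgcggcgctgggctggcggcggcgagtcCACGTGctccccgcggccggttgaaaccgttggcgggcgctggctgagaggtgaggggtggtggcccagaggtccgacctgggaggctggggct
NPM1: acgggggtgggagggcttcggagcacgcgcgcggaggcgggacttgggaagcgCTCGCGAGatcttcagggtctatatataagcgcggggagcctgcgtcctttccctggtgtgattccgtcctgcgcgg
The E-box began 10 bases before the start site in UTP20, 11 before it in NOP10, 31 before it in DDX21 and 64 before it in LYAR, and at base 4 of the transcript in WDR43. Of 22 E-boxes in the promoters of the factors, 20 began no more than 150 bases before a start site or after it. That stretch makes up most of the 300 bases searched, and the same share was not computed for other genes. NOP16, the factor with the largest fall, had none in its window.

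snoRNP proteins fell by a median of 1.93 on the log2 scale at 1 µM, with -1.03, -1.42 and -1.84 at the lower doses. Box H/ACA snoRNPs convert uridine to pseudouridine through DKC1 and its partners NHP2, NOP10 and GAR1, and box C/D snoRNPs methylate ribose through FBL with NOP56 and NOP58. GAR1 (chr4:109815510-109824740) changed most in this class, from 119, 130.0 and 130.1 CPM in the untreated libraries to 43.8, 51.0 and 65.8 at 0.15 µM, 36.9, 30.1 and 32.5 at 0.25 µM, 18.2, 14.3 and 16.6 at 0.5 µM, and 18.2, 16.1 and 18.9 at 1 µM. Its values came down in steps up to 0.5 µM and no treated library reached an untreated one. The log2 fold change at 1 µM was -2.83 (SE 0.163, edgeR adjusted p = 2.73e-11).

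NOP10 (chr15:34339159-34343180), the smallest member of the same particle, fell least in the class, from 87.0, 92.6 and 77.9 CPM untreated to 63.2, 56.9 and 56.3 at 0.15 µM and 35.7, 36.3 and 35.0 at 1 µM. Its 0.25 µM libraries, at 46.8, 57.3 and 34.5 CPM, were spread over much of the distance between those groups, and the 0.5 µM libraries read 36.5, 36.7 and 23.3. Its log2 fold change was -0.55 (SE 0.180, edgeR adjusted p = 0.0167) at 0.15 µM, a call lost in 5 of 24 alternative analyses, in which the value ran from -0.61 to -0.19. It was -1.27 (SE 0.183, edgeR adjusted p = 6.26e-06) at 1 µM. DKC1, the pseudouridine synthase, lay close to GAR1 at -2.78, and NHP2 close to NOP10 at -1.52. The estimated falls of the mRNAs for the H/ACA particle thus differed, and no test was made between them.

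FBL, the methyltransferase of box C/D snoRNPs, was 1 of the 2 factors not called at 0.15 µM. Its untreated libraries held 742, 787 and 847 CPM and its 0.15 µM libraries 406, 410 and 685 CPM, where replicate 3 lay nearer to the untreated than to the other treated values. The log2 fold change was -0.66 (SE 0.272, edgeR adjusted p = 0.0503) and its 95% interval ran from -1.24 to -0.09 before adjustment. FBL was called at this dose in 10 of 24 alternative analyses, among them the one without that library. At 1 µM FBL was at -1.42, NOP58 at -1.93 and NOP56 at -2.07. The genes NOP56, NOP58, DKC1, WDR43, NCL, GNL3 and POLR1C contain 24 annotated snoRNAs and scaRNAs, which makes 7 hosts of such RNAs among the 47 factors (14.9%), against 1.37% of 20046 protein-coding genes.

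Small subunit factors had median log2 fold changes of -1.21, -1.74, -2.58 and -2.44 in dose order. UTP20 (chr12:101280105-101386618), a large protein of the processome that forms on the precursor RNA, fell most in this class. It held 148, 169 and 149.8 CPM in untreated libraries, 42.5, 51.4 and 27.4 at 0.15 µM, 19.7, 27.8 and 41.1 at 0.25 µM, 7.38, 8.28 and 9.76 at 0.5 µM, and 11.3, 8.91 and 11.4 at 1 µM. The 0.15 and 0.25 µM libraries overlapped, whereas those at 0.5 and 1 µM lay below both. At 1 µM the level was 6.77% of untreated (log2 fold change -3.88, SE 0.263, edgeR adjusted p = 5.62e-10).

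WDR43 (chr2:28894667-28948219), a processome protein that also joins transcription of ribosomal RNA to its processing, showed the largest change of the class between the lowest and the highest dose. From 264, 329.7 and 292 CPM it went to 131, 137 and 102 at 0.15 µM, 71.2, 86.9 and 87.5 at 0.25 µM, 26.9, 27.3 and 24.5 at 0.5 µM, and 25.8, 24.0 and 27.5 at 1 µM. Groups did not overlap up to 0.5 µM. The difference between 1 and 0.15 µM was -2.26 on the log2 scale (SE 0.151, edgeR adjusted p = 1.1e-09). UTP4 and UTP15, which act in the same subcomplex, were at -3.23 and -3.06 at 1 µM, and HEATR1 at -2.43.

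DDX52 (chr17:37609739-37643446), an RNA helicase, was at about the same level at the lowest and the highest dose. It was at 114, 137 and 143 CPM in untreated libraries, 56.8, 56.4 and 54.0 at 0.15 µM, 43.7, 48.6 and 50.7 at 0.25 µM, 57.8, 55.8 and 57.0 at 0.5 µM, and 58.1, 52.0 and 55.6 at 1 µM. The 1 µM value differed from that at 0.15 µM by -0.01 on the log2 scale, with a 95% interval from -0.27 to 0.25. NOB1, the nuclease that makes the end of the small-subunit RNA, had a like course, with -1.37 at 0.15 µM and -1.34 at 1 µM. RRP9, a protein of the snoRNP that binds the precursor in the processome, was the second factor not called at 0.15 µM, with untreated libraries at 180, 146 and 149 CPM and 0.15 µM libraries at 74.6, 72.7 and 102. The log2 fold change there was -0.93 (SE 0.475, edgeR adjusted p = 0.123) and it was -2.93 at 1 µM.

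Large subunit factors had the lowest median of the classes at 0.5 and 1 µM, with -1.19, -1.97, -2.68 and -2.65 in dose order. NOP16 (chr5:176383946-176388927), a nucleolar protein of the early large subunit precursor, fell most of all 47. Its libraries held 107, 121 and 111 CPM untreated, 35.9, 42.3 and 38.2 at 0.15 µM, 19.6, 20.1 and 20.3 at 0.25 µM, 4.99, 5.90 and 5.14 at 0.5 µM, and 6.00, 5.77 and 5.44 at 1 µM. Each group up to 0.5 µM lay wholly below the one before it. At 1 µM the level was 5.09% of untreated (log2 fold change -4.30, SE 0.143, edgeR adjusted p = 2.93e-14).

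MRTO4, GNL3 and RRS1 followed at -3.66, -3.17 and -2.87. PES1, BOP1 and WDR12, which form a complex needed for processing of the large subunit RNA, were at -2.60, -1.84 and -2.76 at 1 µM. BOP1 was at -0.80 at 0.15 µM, a call that was lost in 14 of 24 alternative analyses, in which its value ran from -0.98 to -0.44. NOP2, an RNA methyltransferase of the large subunit, fell from 3.39, 4.17 and 3.52 CPM to 1.56, 1.24 and 1.40, or -1.40 on the log2 scale. Whether reads on the exon bases it shares with another gene were counted was not checked.

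RRP1B (chr21:43659560-43696079) fell least of all 47 at 1 µM and was the only factor called higher between neighbouring doses in the fit of all 15 libraries. Its libraries held 353, 413 and 418 CPM untreated, 175, 193 and 156 at 0.15 µM, 104, 142 and 97.6 at 0.25 µM, 198, 214 and 126 at 0.5 µM, and 206, 155 and 191 at 1 µM. The lowest group was thus 0.25 µM, and replicate 3 at 0.5 µM lay within the range of the 0.25 µM libraries. The rise from 0.25 to 0.5 µM was 0.65 on the log2 scale (SE 0.192, edgeR adjusted p = 0.0151), and the call was lost without replicate 1 at 0.25 µM, without replicate 1 or replicate 2 at 0.5 µM, and in a fit of the compared libraries alone.

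RRP1 (chr21:43789513-43805293), a paralog of RRP1B on the same chromosome, was compared with it after their values had been seen. RRP1 went from 194, 199 and 205 CPM to 40.3, 36.7 and 38.7 at 1 µM, a log2 fold change of -2.37 (SE 0.177, edgeR adjusted p = 9.5e-10). The log2 ratio of RRP1B to RRP1 counts within a library, which no scaling touches, was 0.87, 1.05 and 1.03 in untreated libraries and 2.35, 2.08 and 2.30 at 1 µM. It was 2.43, 2.47 and 2.11 at 0.5 µM, above all untreated libraries, while 1 of the 0.15 µM libraries was at 0.23 and the others at 1.06 and 1.10. An exact two-sided permutation test gave p = 0.1 at 0.5 and at 1 µM (0.2 adjusted over 4 doses), the smallest that 3 against 3 libraries allow.

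**Figure D2:**
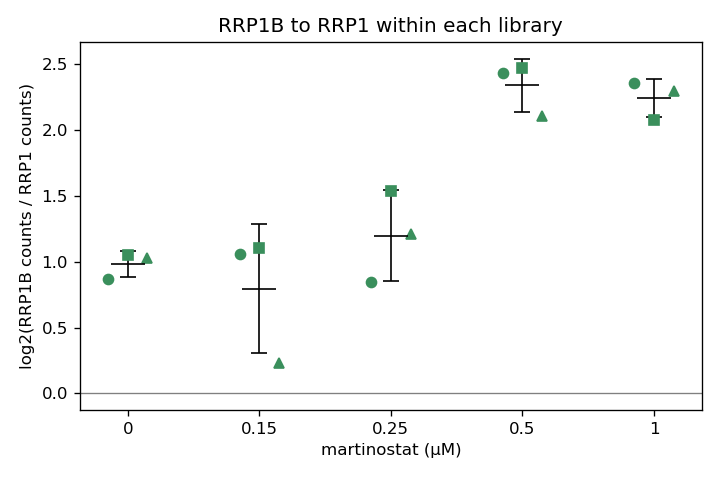
Log2 ratio of RRP1B to RRP1 raw counts (vertical axis) in each library by martinostat dose (horizontal axis, µM), with circle, square and triangle for replicates 1 to 3 and a bar with whiskers for mean ± SD, n = 3. The 6 libraries at 0.5 and 1 µM sit between 2.08 and 2.47, above the untreated ones at 0.87 to 1.05.

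RNA polymerase I genes had median log2 fold changes of -1.03, -1.48, -1.73 and -1.70, smaller falls than those of the subunit factors at every dose. The snoRNP medians, at -1.03, -1.42, -1.84 and -1.93, were of similar size. Members of a class are not replicates, and no test was made between classes. UBTF (chr17:44205033-44221626), which binds ribosomal DNA and keeps it open for the polymerase, fell most of the RNA polymerase I genes at 1 µM and least of all 47 at 0.15 µM. Its libraries held 265, 274 and 298 CPM untreated, 168, 188 and 218 at 0.15 µM, 105, 93.0 and 92.7 at 0.25 µM, 45.9, 44.4 and 42.8 at 0.5 µM, and 47.0, 44.8 and 49.7 at 1 µM. Groups did not overlap between 0 and 0.5 µM. Its log2 fold change was -0.54 (SE 0.129, edgeR adjusted p = 0.00163) at 0.15 µM, a call lost on library totals and where TMM used the genes of at least 10 CPM, and -2.56 (SE 0.136, edgeR adjusted p = 9.62e-12) at 1 µM.

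RRN3 (chr16:15060033-15094311), the factor that brings the polymerase to the promoter, had another course. It was at 74.6, 85.1 and 77.0 CPM untreated, 36.2, 36.9 and 34.5 at 0.15 µM, 25.9, 32.2 and 32.9 at 0.25 µM, 33.0, 36.9 and 35.2 at 0.5 µM, and 38.2, 31.6 and 35.9 at 1 µM. Its level came down at the lowest dose, the 0.25 µM libraries lay below those at 0.15 and 0.5 µM, and the groups at 0.15, 0.5 and 1 µM overlapped. The difference between 1 and 0.15 µM was -0.03 (95% interval -0.30 to 0.25). POLR1A, the largest subunit of the enzyme, was at -1.82 at 1 µM, POLR1B at -1.57, POLR1C, which RNA polymerase III also uses, at -1.55, and TCOF1, a nucleolar cofactor of the polymerase, at -2.09.

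General nucleolar proteins had median log2 fold changes of -1.52, -2.24, -2.50 and -2.49. LYAR (chr4:4267701-4290154), a nucleolar protein tied to cell growth, was at 178, 197 and 182 CPM untreated, 44.2, 52.1 and 71.4 at 0.15 µM, 34.0, 26.6 and 29.9 at 0.25 µM, 26.7, 26.4 and 23.5 at 0.5 µM, and 28.4, 24.5 and 22.3 at 1 µM. DDX21 (chr10:68956135-68985068), an RNA helicase, was at 1152, 1195 and 1233 CPM untreated, 337, 427 and 481 at 0.15 µM, 245, 240.0 and 273 at 0.25 µM, 179, 187 and 146 at 0.5 µM, and 171, 149 and 178 at 1 µM. The untreated, 0.15 µM and 0.25 µM libraries of both genes did not overlap, and the groups at 0.5 and 1 µM did. At 1 µM the log2 fold changes were -2.89 (SE 0.173, edgeR adjusted p = 4.91e-11) for LYAR and -2.84 (SE 0.166, edgeR adjusted p = 3.33e-11) for DDX21.

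NPM1 (chr5:171387116-171411810), an abundant nucleolar chaperone, fell least in this class at 1 µM and reached its low level at the lowest dose. Its libraries held 3382, 3892 and 3501 CPM untreated, 998, 1073 and 1072 at 0.15 µM, 940.2, 1034 and 933 at 0.25 µM, 1136, 1125 and 826 at 0.5 µM, and 957, 991 and 1000 at 1 µM. All treated groups overlapped. The log2 fold change was -1.78 (SE 0.160, edgeR adjusted p = 3.64e-08) at 0.15 µM and -1.87 (SE 0.160, edgeR adjusted p = 6.3e-09) at 1 µM, and the difference between these doses was -0.09, with a 95% interval from -0.42 to 0.23. NCL, or nucleolin, and NOLC1 were at -1.03 and -1.46 at 0.15 µM and at -2.31 and -2.49 at 1 µM.

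**Figure D3:**
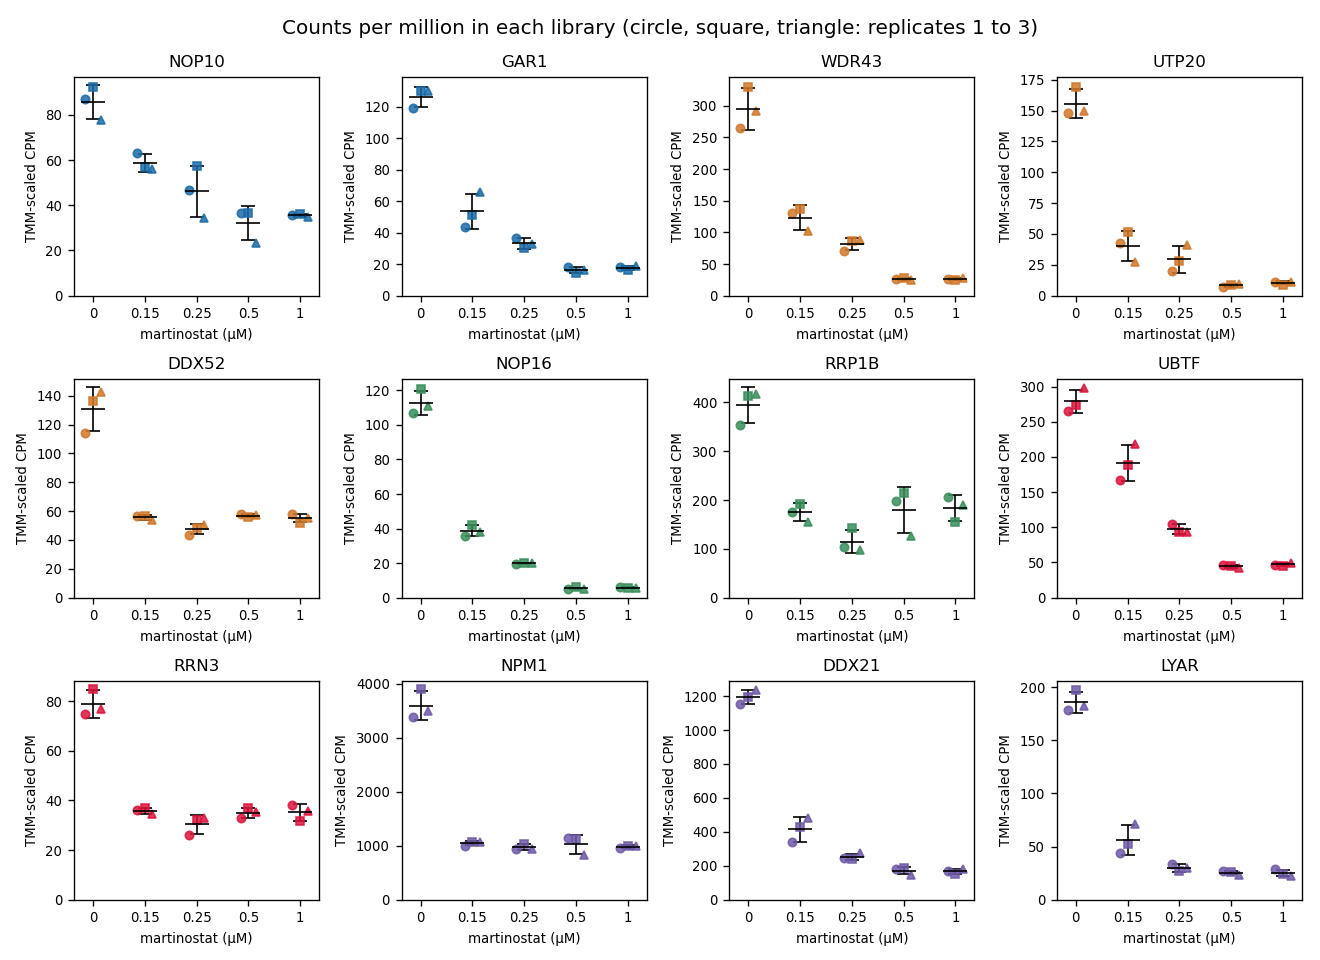
TMM-scaled CPM (vertical axes, from 0) of 12 factors in each library by martinostat dose (horizontal axes, µM), colour by class, circle, square and triangle for replicates 1 to 3, bar and whiskers for mean ± SD, n = 3. NOP16, WDR43 and UBTF step down as far as 0.5 µM, while most of the fall of NPM1, RRN3 and DDX52 is present at 0.15 µM.

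The doses at which factors changed differed between them. From 0.15 to 0.25 µM 31 factors were called lower (7.32% of all tested genes, 15.2% of those of at least 10 CPM). Without replicate 3 at 0.15 µM that count was 19. From 0.25 to 0.5 µM 24 were called lower (16.0% and 21.9%) and 1, RRP1B, higher (14.4% of all tested genes). Same-numbered libraries of these 2 groups deviated together, with correlations of 0.266, 0.268 and 0.579, the last in replicate 3. Replicate 2 at 0.25 µM and replicate 1 at 0.5 µM did so about as much as the first 2 (0.236), so pairing by number is uncertain. With the replicate number as a block in a fit of these libraries alone, 32 were called lower and 2, NOB1 and RRP1B, higher. Of the 47, 20 were called lower in both steps (3.4% of all tested genes, 7.13% of those of at least 10 CPM), and 12 were called in neither (64.0% and 49.4%). No factor was called between 0.5 and 1 µM by edgeR or DESeq2, none had an unadjusted p under 0.05, and log2 differences ran from -0.14 to 0.31. No gene of the whole table was called there by either tool, and 372 of 23711 had an unadjusted p under 0.05 in edgeR.

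Between 0.15 and 1 µM 39 factors were called lower, against 23.1% of all tested genes and 33.9% of those of at least 10 CPM. The 8 that were not called were NHP2, NOB1, DDX52, NOP2, RRP1B, EBNA1BP2, RRN3 and NPM1. As a share of the log2 fold change at 1 µM, the change already present at 0.15 µM had a median of 50.0% and ran from 21.2% for UBTF to 107% for RRP1B. It was over 80% for 6 factors, namely RRP1B, NOB1, DDX52, RRN3, NPM1 and EBNA1BP2. Class medians of this share were 46.7% for snoRNP proteins, 50.0% for small subunit factors, 44.8% for large subunit factors, 59.0% for RNA polymerase I genes and 58.6% for general nucleolar proteins.

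**Figure D4:**
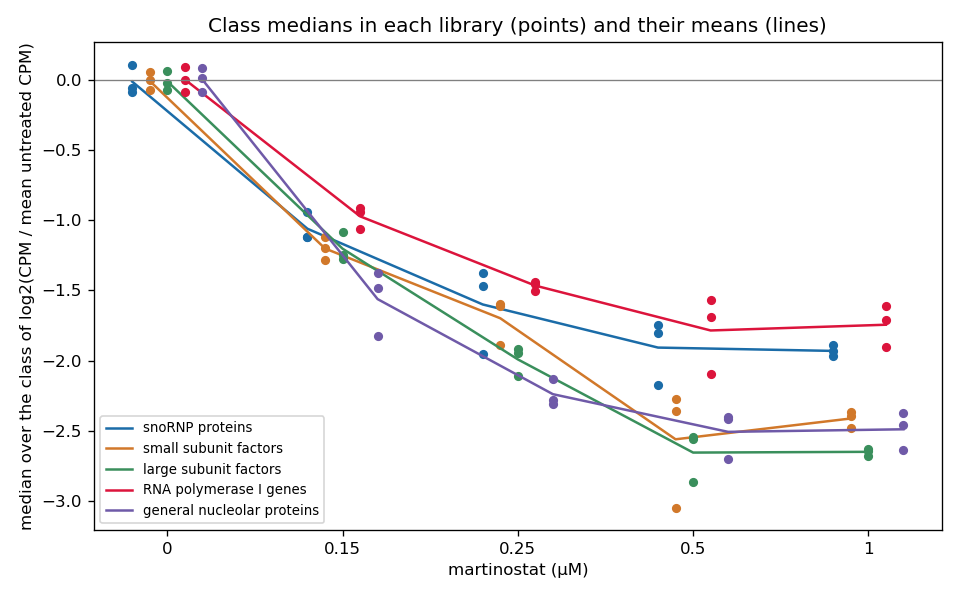
Median over the members of a class of log2(CPM divided by the mean untreated CPM) (vertical axis) in each library (points) by martinostat dose (horizontal axis, µM), with lines through the mean of 3 libraries. The highest treated point is at -0.91, and large and small subunit factors lie lower than snoRNP proteins and RNA polymerase I genes at 0.5 and 1 µM.

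Levels were compared between genes per kilobase of exon. In untreated cells NPM1 had the highest level, with 432 CPM per kb, followed by FBL with 370 and NCL with 278. NOP2 had the lowest, with 0.789. That value divides by all exon bases of NOP2, of which 54.4% lie under another gene, so it may understate its level. At 1 µM FBL came first with 138 CPM per kb and NPM1 second with 118, and NCL kept its place with 56.0. MRTO4 moved from place 5 with 155 CPM per kb to place 18 with 12.3. Together NPM1 and NCL held 32.7% ± 0.881 (SD, n = 3) of the counts of all 47 in untreated cells, 28.3% ± 1.82 at 0.15 µM and 35.6% ± 0.628 at 1 µM.

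Most other ribosome biogenesis genes, taken from lists by role, also fell. At 1 µM 35 of 37 other small subunit factors were called lower (median log2 fold change -1.53, from DHX37 at -3.46 to UTP3 at -0.10, which was not called). Of 38 other large subunit factors 36 were called lower (median -1.74, from URB2 at -3.89 to NOP53 at 0.11, not called). Of 10 other RNA polymerase I genes 8 were called lower and 1 higher (median -1.13, from POLR1G, a subunit of the enzyme, at -3.72 to TAF1C, a subunit of its promoter selectivity factor, at 0.91, called higher). The 85 together had a median of -1.53, against -2.43 in the 47. Both lists were chosen with earlier results of these data known, and no test was made between them. Of 79 mRNAs of cytosolic ribosomal proteins, the structural parts of the ribosome, 33 were called lower (41.8%) and 46 were not called. Their median was -0.42, with a range from RPL17 at -1.79 to RPL28 at 0.46. At this dose 27.5% of all tested genes and 48.4% of those of at least 10 CPM were called lower. The latter had a median of -0.39, so the ribosomal protein genes lay near the genes of that level. As a share of raw counts these 79 made up 7.92% ± 0.176 (SD, n = 3) of untreated libraries and 8.44% ± 1.19 at 1 µM. Their mean share of raw counts thus did not fall. The log2 fold changes of these lists rest on TMM scaling, and other scalings were examined only for the 47 factors.

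**Figure D5:**
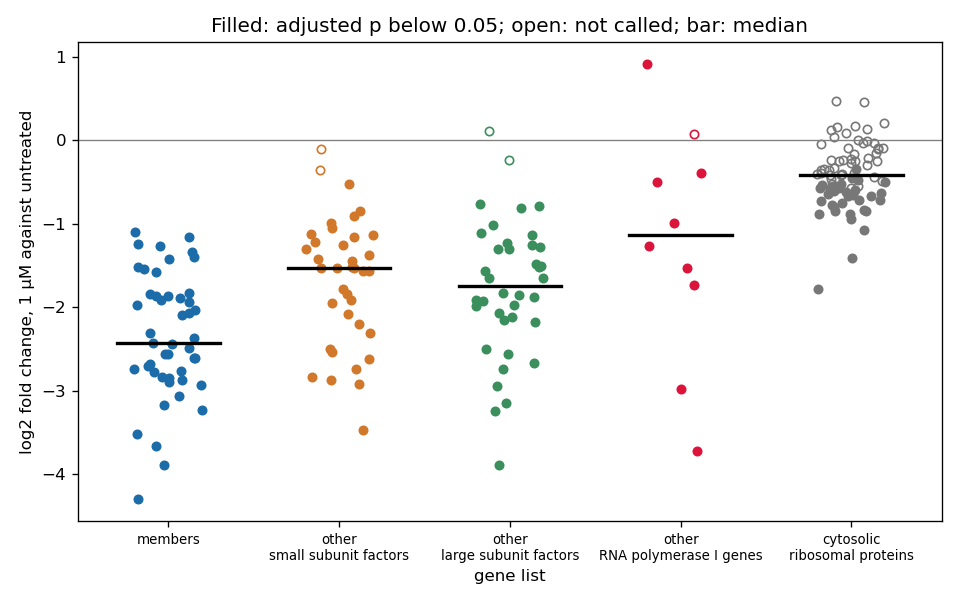
Log2 fold change at 1 µM against untreated cells (vertical axis) of the 47 factors, 37 other small subunit factors, 38 other large subunit factors, 10 other RNA polymerase I genes and 79 cytosolic ribosomal protein genes (horizontal axis), 1 point a gene from edgeR, filled where called, with a bar at the median. Medians are -2.43, -1.53, -1.74, -1.13 and -0.42, and all 47 factors lie below -1.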

How the data were processed

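The authors made directional libraries from poly(A) RNA and sequenced them as paired ends. Per the submitters' processing notes and the study's methods, reads were trimmed with Trim Galore 0.6.10 and Trimmomatic, aligned to hg38 with HISAT2 2.2.1, and counted per GENCODE gene with featureCounts 1.5.3. The strand setting of counting was not given in the sources used here. The deposited table held raw counts of 60649 genes in 15 libraries. Deposited FPKM files were not used, since they divide the same counts by 1 length per gene (48321 of 48321 genes, within 0.1%).

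Counts were fitted with edgeR 4.0.16 in R 4.3.3, in 1 robust quasi-likelihood model over all libraries with group as the only term, after filterByExpr and TMM scaling, and p-values were adjusted over all 23711 tested genes. The fit was tested on simulated data, where it missed part of the changed genes, so a missing call does not show that a gene did not change. Intervals are 95% intervals of the fitted difference. Symbols, positions and exon lengths came from GENCODE 44, and promoters from RefSeq. Of the factors, 37 had the same identifier version and 16 shared over 5% of their exon bases with another gene.

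The members and lists were chosen with earlier results of these data known. Members given library by library had, in their class, the lowest or highest log2 fold change at 1 µM or the largest difference between 0.15 and 1 µM. FBL, RRP9, NOP2 and RRP1 were added after their values were seen. The labels do not say that equal replicate numbers belong together. Correlations of same-numbered libraries, each taken as its deviation from its group, were 0.266 to 0.579 between 0.25 and 0.5 µM, and in no other pair of groups were all 3 correlations over 0.1. The alternatives were other scalings, DESeq2, other filters on low counts, fits of the compared libraries alone, a replicate block, and leaving out each library.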

Additional observations from a re-analysis of the deposited data

How the results depend on the processing

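No called value changed direction under the alternatives run for it. Differences between 1 and 0.15 µM that were not called changed sign in 8 of 24 alternatives for DDX52, 7 for RRN3, 4 for NPM1 and 1 for RRP1B. The ratio of RRP1B to RRP1 was not recomputed. The counts of factors called lower against untreated cells stayed at 47 for 0.25, 0.5 and 1 µM in all 24. At 0.15 µM the count was 38 on library totals, 40 on TMM from genes of at least 10 CPM, 41 to 46 when a library was left out, and 47 in fits of the compared libraries alone. Calls lost under some alternatives were those of BOP1 (14 of 24), RRP12 (8), NOP10 (5), BYSL (4), NHP2 (3), UBTF (2), NOP2 and RRS1 (1 each). Leaving out replicate 1 or 2 at 0.15 µM, or any untreated library, lost BOP1 and RRP12. NOP10 was lost without untreated replicate 2 or replicate 2 at 0.15 µM, BYSL without replicate 1 at 0.15 µM, and NHP2 without untreated replicate 1 or replicate 1 or 2 at 0.15 µM. BOP1 was also lost without replicate 2 at 0.25 or 0.5 µM or any 1 µM library. FBL was gained without replicate 3 at 0.15 µM or replicate 1 or 3 at 0.25 or 0.5 µM.

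The count lower from 0.15 to 0.25 µM ran from 19 to 33 when a library was left out. The count higher from 0.25 to 0.5 µM ran from 0 to 2 and was 0 in a fit of the compared libraries alone. Alternatives were chosen after seeing the data, leaving out replicate 3 at 0.25 and at 0.5 µM together and a replicate block within these groups, and each gave 2. The replicate block over all libraries changed no count.

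Class medians moved with the scaling. The median of all tested genes at 1 µM was itself 0.32 on TMM, 0.38 on RLE, 0.67 on library totals and 0.70 on TMM from genes of at least 10 CPM. In the order snoRNP proteins, small subunit, large subunit, RNA polymerase I and general nucleolar proteins, medians at 1 µM were -1.58, -2.09, -2.30, -1.34 and -2.13 on library totals. They were -1.55, -2.06, -2.27, -1.32 and -2.10 on TMM from genes of at least 10 CPM, and -1.65, -2.17, -2.38, -1.42 and -2.21 with at least 10 counts in every library. At 0.15 µM they were -0.67, -0.85, -0.83, -0.67 and -1.17 on library totals. For the first 4 classes TMM from genes of at least 10 CPM gave -0.77, -0.95, -0.93 and -0.77, and at least 10 counts in every library gave -0.86 for snoRNP proteins, -1.01 for large subunit factors and -0.85 for RNA polymerase I genes. The cause was not tested. With a library left out, the medians ran from -1.97 to -1.86, -2.51 to -2.40, -2.70 to -2.61, -1.75 to -1.65 and -2.58 to -2.42 at 1 µM in that order, and from -1.12 to -0.97, -1.25 to -1.15, -1.27 to -1.16, -1.08 to -0.98 and -1.65 to -1.39 at 0.15 µM. NOP2 had the lowest counts of the 47, which limits the precision of its values.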
